A study of Rattus norvegicus with 3 samples.

Results

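Endothelin, nitric oxide and natriuretic peptide genes were compared in kidney inner medulla between rats given lithium and control rats. The genes were chosen by name, as the probes whose single annotated symbol was Edn1, Edn3, Ednra, Ednrb, Nos1, Nos2, Nos3, Npr1, Npr2 or Npr3. Earlier results of these data were known when this choice was made. This gave 15 probes of 8 genes, of 5760 probes and 4390 named genes in all. No probe had Ednra or Ednrb as its single symbol in the annotation used, so these endothelin receptor genes were not analysed here. Nos3 had 6 probes, Nos1 and Npr3 had 2 each, and the other 5 genes had 1 each.

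Each of 3 two-colour arrays set medulla RNA of lithium-treated rats, labelled red, against medulla RNA of control rats, labelled green. Treatment lasted 1 month. Arrays 1 and 2 carried RNA of 2 rats per channel, and array 3 carried RNA of 1 rat per channel, with different rats on every array. The labels describe the comparison rats only as controls and give no strain, sex, age or lithium dose. A value is a deposited log ratio from which the median of its array was subtracted. Its base was not stated, so ratios are given for base 10 and base 2. Values above 0 are read as higher with lithium, which the channel labels make likely but the table does not state. With the sign turned, every direction below would be the opposite. Lithium was red on all 3 arrays, so an effect of the dyes cannot be told apart from one of treatment. In RNA of inner medulla tissue, fewer cells of a type and less RNA per cell cannot be told apart either. Spot brightness was not used here, so the presence of medullary cell types cannot be checked from levels, and the number of arrays limits the precision.

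These genes belong to 3 local signalling systems that act on vessels and tubules of the renal medulla. Endothelins are peptides cleaved from larger precursors, and endothelin 1 made by collecting duct cells lowers sodium and water reabsorption there. Nitric oxide synthases make nitric oxide from arginine, and nitric oxide switches on the soluble guanylyl cyclase that makes cGMP. Natriuretic peptide receptors A and B, encoded by Npr1 and Npr2, are themselves guanylyl cyclases in the cell membrane. The third receptor, encoded by Npr3, has no cyclase domain and clears the peptides.

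None of the genes passed the test of lithium against control. Nos1, neuronal nitric oxide synthase, and Npr2, the receptor for C-type natriuretic peptide, had the lowest means among the 6 genes measured on all 3 arrays, at −0.095 ± 0.045 and −0.10 ± 0.098 (SD, n = 3). Nos2, the inducible synthase, Edn3, which encodes endothelin 3, and Nos3, the endothelial synthase, had means between −0.0228 and −0.00667. Edn1, which encodes endothelin 1, and Npr3 had values on arrays 1 and 2 only and a mean of −0.115 each. In limma, 0 of the 6 genes had an adjusted p of 0.05 or less and 0 had an unadjusted p of 0.05 or less, where 0.445% and 17.2% of all 3819 genes or unnamed probes tested did. The adjusted p-values of the 6 ran from 0.293 to 0.954.

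**Figure D1:**
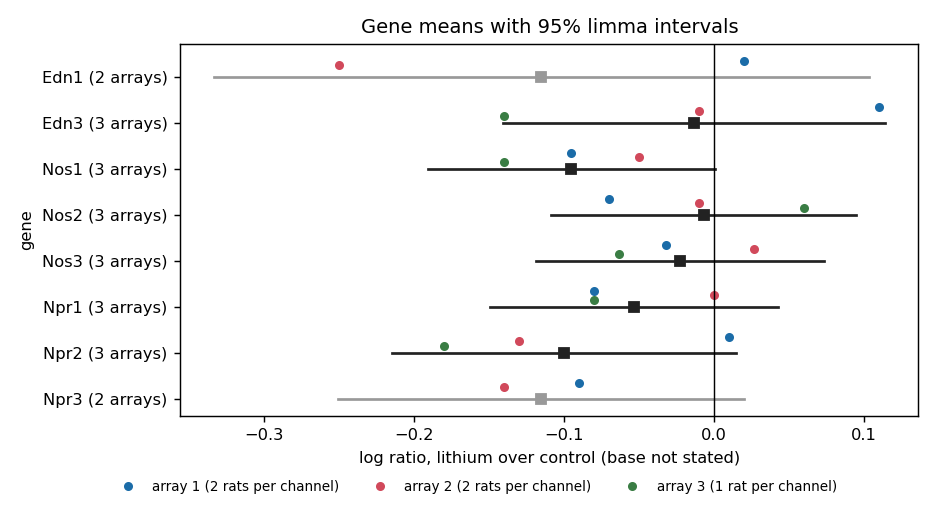
Mean log ratio (squares) of each gene with its 95% limma interval (lines), and the value on each array (circles, drawn above the line); grey marks Edn1 and Npr3, fitted on 2 arrays in the alternative fit. All 8 intervals include 0, and the circles of Edn1, Edn3, Nos2, Nos3 and Npr2 lie on both sides of 0.

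All 8 means lay below 0, 6 of 6 among the genes on all 3 arrays. For Edn1, Edn3, Nos2 and Nos3 the distance from 0 was smaller than the SD between arrays. Among all 3819 features tested, 42.7% of means lay below 0 and their median was 0.0133. Edn1 and Npr3 had no value on array 3, and 83.0% of all 1209 such features lay below 0. On arrays 1 and 2 the Nos1 value also averaged in a probe with no value on array 3. The median over the 6 genes was −0.0381. On array 1, 4 of the 6 genes were below 0, on array 2 also 4 with Npr1 at 0, and on array 3, 5 of 6. Nos1 alone of the 6 had the same sign on every array, which 38.7% of all features had.

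The endothelin peptide genes had ratios that crossed 0 between arrays. Edn1 read 0.02 on array 1 and −0.25 on array 2. The first is near the array's median and the second among its lower values, at percentile 59.9 and 12.2 of all genes and unnamed probes there. The mean of −0.115 ± 0.191 (SD, n = 2) therefore rested on array 2. In the alternative fit that admits features on at least 2 arrays, Edn1 had a limma adjusted p of 0.483, where 0.811% of 4930 features were called.

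Edn3 read 0.11, −0.01 and −0.14 on arrays 1, 2 and 3. Array 1 was among the higher values of its array, at percentile 90.6, and array 3 among the lower, at percentile 10.4, so the arrays disagreed on direction. Its mean was −0.0133 ± 0.125 (SD, n = 3, limma adjusted p = 0.926), and the 95% interval ran from −0.141 to 0.114, a range of 0.723 to 1.30 times the control level in base 10 or 0.907 to 1.08 times in base 2. Without array 3 the mean was 0.05.

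The third endothelin gene, Edn2, is not one of the 8 and was looked up from a list of pathway genes. It read −0.05, 0.04 and −0.01, with a mean of −0.00667 ± 0.0451 (SD, n = 3, limma adjusted p = 0.953). Edn1 minus Edn3 was −0.09 and −0.24 on the arrays that measured both, so Edn1 had the lower ratio on each, and it was above Edn2 on array 1 and below it on array 2.

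Nos1 was the gene with the smallest p-value of the 6. Its gene value was −0.095 on array 1, −0.05 on array 2 and −0.14 on array 3, which all lie below 0. The mean ratio was 0.804 in base 10 or 0.936 in base 2, with a limma p of 0.0515 and an adjusted p of 0.293. The 95% interval ran from −0.191 to 0.000821. Weighting the arrays by limma's own estimate gave Nos1 an adjusted p of 0.0251. That fit put a weight of 4.52 on array 1, 0.371 on array 2 and 0.596 on array 3, and called 1055 features, 27.6% of those tested.

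The 2 probes of Nos1, which the annotation assigns to the same gene ID, did not read alike. The probe 2.1.11.14 read −0.18 and −0.23 on arrays 1 and 2 and had no value on array 3. The probe 7.1.11.5 read −0.01, 0.13 and −0.14 on arrays 1, 2 and 3, which lie on both sides of 0. The gap between both probes was 0.17 on array 1 and 0.36 on array 2. In terms of the SD over probes, this placed Nos1 at percentile 74.3 of 443 other genes with several probes on array 1, and at percentile 84.4 of 449 on array 2. The probe measured on all 3 arrays had a mean of −0.00667 ± 0.135 (SD, n = 3, limma adjusted p = 0.965) on its own. The single sign of the Nos1 gene value thus came from array 2, where averaging −0.23 with 0.13 gave −0.05. The gene value on array 3 was that of the second probe alone.

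**Figure D2:**
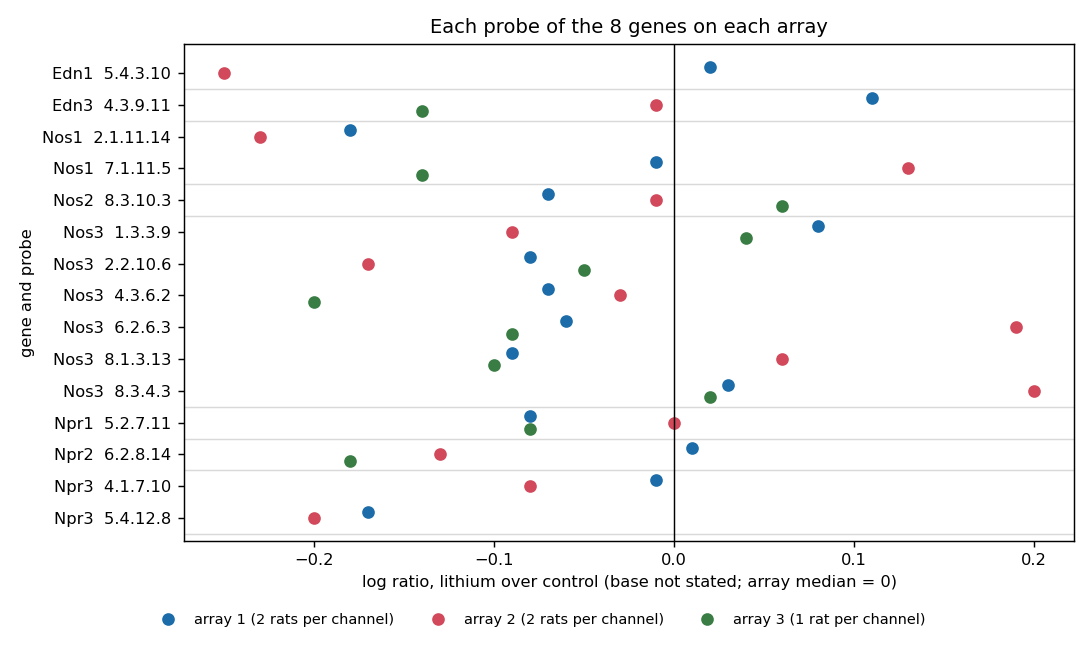
Log ratio of each of the 15 probes (rows, gene and probe position on the array) on arrays 1, 2 and 3 (colours), with the median of each array at 0. The probes 5.4.3.10 of Edn1, 2.1.11.14 of Nos1 and both probes of Npr3 have no circle for array 3, and the 6 probes of Nos3 lie between −0.17 and 0.20 on array 2.

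Nos2 read −0.07 on array 1, −0.01 on array 2 and 0.06 on array 3. These values cross 0 and stay within the middle of each array, at percentiles 26.8, 46.8 and 71.2. The mean was −0.00667 ± 0.0651 (SD, n = 3, limma adjusted p = 0.954), with a 95% interval from −0.108 to 0.0949, and it was 0.025 without array 1. In base 10 this spans 0.779 to 1.24 times the control level, and in base 2 it spans 0.928 to 1.07 times.

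Nos3 was the most densely probed of the 8, with all 6 probes measured on all 3 arrays. Averaged over its probes, the gene read −0.0317 on array 1, 0.0267 on array 2 and −0.0633 on array 3, so array 2 opposed the other 2. The mean was −0.0228 ± 0.0457 (SD, n = 3, limma adjusted p = 0.811), with a 95% interval from −0.119 to 0.0732. That is 0.761 to 1.18 times the control level with base 10, and 0.921 to 1.05 times with base 2. The mean was −0.0475 without array 2 and −0.0025 without array 3.

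Single probes of Nos3 differed among themselves by more than the gene differed from 0. Their means over the 3 arrays were −0.10 for 2.2.10.6, −0.10 for 4.3.6.2, −0.0433 for 8.1.3.13, 0.01 for 1.3.3.9, 0.0133 for 6.2.6.3 and 0.0833 for 8.3.4.3. Means of 3 probes were thus below 0 and of 3 above. The lowest adjusted p of a Nos3 probe fitted on its own was 0.303, for 2.2.10.6, and 0.259% of 4250 single probes were called in that fit. The probes 2.2.10.6 and 4.3.6.2 were below 0 on every array, 8.3.4.3 was above 0 on every array, and the other 3 changed sign.

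The disagreement between Nos3 probes was of the size seen for other genes with several probes. On array 1 the 6 probes ranged over 0.17, on array 2 over 0.37 and on array 3 over 0.24. Their SD was 0.0697, 0.151 and 0.0878, against a median of 0.0707, 0.113 and 0.0636 over the other genes with at least 2 probes. This put Nos3 at percentiles 47.0, 64.6 and 64.2 of those genes. Most like Nos3 in probe number were the other genes with at least 5 probes, 15, 17 and 8 on arrays 1, 2 and 3. Their median SD was 0.0951, 0.173 and 0.072.

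The 3 synthase genes were also set beside each other array by array, with no test. Nos1 minus Nos3 was −0.0633, −0.0767 and −0.0767 on arrays 1, 2 and 3, so Nos1 had the lower ratio each time, again with Nos1 resting on different probes. Nos2 minus Nos3 was −0.0383, −0.0367 and 0.123, which changes sign on array 3.

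Npr1, the receptor for atrial and brain natriuretic peptides, read −0.08 on arrays 1 and 3 and 0 on array 2. No array put it above its median. The mean was −0.0533 ± 0.0462 (SD, n = 3, limma adjusted p = 0.542), which is 0.884 times the control level with base 10 or 0.964 times with base 2. The 95% interval ran from −0.149 to 0.0428.

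Npr2 read 0.01 on array 1, −0.13 on array 2 and −0.18 on array 3. Array 3 was among the lowest values there, at percentile 5.78, whereas array 1 was near its median. The mean of −0.10 (limma adjusted p = 0.346) is 0.794 times the control level with base 10 or 0.933 times with base 2, with a 95% interval from −0.215 to 0.0147. Left out in turn, the arrays gave means from −0.155 without array 1 to −0.06 without array 3, and array weights moved the mean to −0.0201. Npr1 minus Npr2 was −0.09, 0.13 and 0.10, so the order of the cyclase receptors on array 1 was opposite to that on the other arrays.

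Npr3 read −0.09 on array 1 and −0.14 on array 2 as a gene, both below 0. Its probes differed in size, at −0.17 and −0.20 for 5.4.12.8 and at −0.01 and −0.08 for 4.1.7.10. The gene mean was −0.115 ± 0.0354 (SD, n = 2), and the fit of features on at least 2 arrays gave a limma adjusted p of 0.301 and a 95% interval from −0.25 to 0.0204.

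Of the probes of these genes, the 2 lowest on array 1 and the 3 lowest on array 2 were ones with no value on array 3. On array 1 the 1316 probes empty on array 3 had a median of −0.08, against 0.01 for the 4266 probes measured on both. On array 2 the medians were −0.18 for 1416 empty probes and 0.04 for 4266 measured ones. In all, 4 of the 15 probes were empty on array 3, those of Edn1 and Npr3 and 1 of Nos1.

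Within that class of probes the values of Edn1, Nos1 and Npr3 were ordinary. On array 2, Edn1 stood at percentile 38.1 of the probes empty on array 3, the Nos1 probe 2.1.11.14 at percentile 41.6, and the Npr3 probes at percentiles 46.8 and 69.2. On array 1 the 4 probes stood between percentile 27.9 and percentile 79.1 of the class. The part of whatever left these spots empty in the low ratios of Edn1, Npr3 and the first Nos1 probe was not tested.

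**Figure D3:**
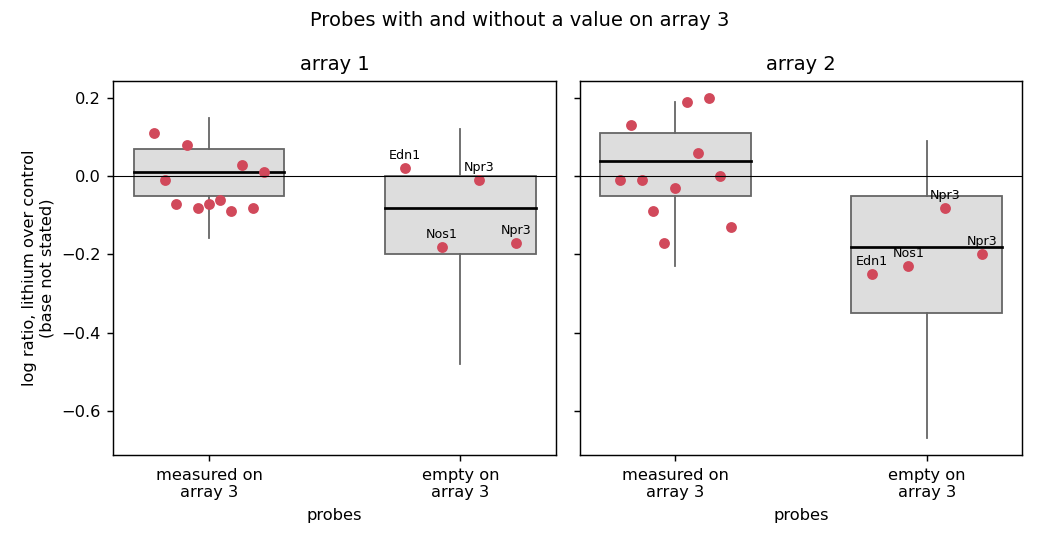
Log ratios on array 1 (left) and array 2 (right) of all probes measured or empty on array 3: the line is the median, the box the quartiles and the whiskers the 5th and 95th percentiles. Red circles are the probes of the 8 genes, and the 4 probes empty on array 3 are named. The empty class has a median of −0.08 on array 1 and −0.18 on array 2, and the 4 named probes fall within its whiskers.

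Other genes of these pathways, listed by role, showed no group-wide direction. Of 82 listed gene symbols 63 had a probe and 51 were measured on all 3 arrays. Of the 51, 27 had a mean above 0 and 24 below, with a median of 0.00667. All 3819 features had a median of 0.0133. The list's median was below 0 with no centring (−0.0133), centred on the features measured on all 3 arrays (−0.01), with features on at least 2 arrays (−0.0133), with array weights (−0.00268) and without array 2 (−0.01). In limma 0 of the 51 had an adjusted p of 0.05 or less, where 0.236% of all features were called higher and 0.209% lower. By the unadjusted p, 12 of the 51, or 23.5%, were at 0.05 or less, against 17.2% of all features. These 12 are given by value below, beside other genes of the list such as Ece1 and Gucy1b2.

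Among peptides and processing enzymes, 2 of 5 measured genes lay above 0 and 3 below. The endothelin-converting enzyme gene Ece1, named after its values were seen, read −0.0475, −0.055 and −0.133, with a mean of −0.0786 ± 0.0475 (SD, n = 3, limma adjusted p = 0.372). Its 4 probes were not of 1 sign, and on array 2 they ran from −0.39 to 0.09. Ecel1, a relative of the converting enzymes, had a mean of 0.113 ± 0.0551 (adjusted p = 0.238).

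Of the genes that supply or regulate the nitric oxide synthases, 13 of 19 lay above 0, where 55.7% of all features did, and their median was 0.0333. Values were above 0 on every array for 7 of the 19 and below it for 1, together 42.1%, where 38.7% of all features had 1 sign. Dynll1, the dynein light chain that binds neuronal nitric oxide synthase, read 0.15, 0.20 and 0.17, all well above 0. Its mean of 0.173 ± 0.0252 (SD, n = 3) had a limma adjusted p of 0.126. Gch1, which starts synthesis of the synthase cofactor tetrahydrobiopterin, read 0.12, 0.07 and 0.20 (mean 0.13, adjusted p = 0.203).

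Genes of arginine handling and synthase binding lay on both sides of 0, and none passed. Among those with the smallest p-values, Asl, argininosuccinate lyase, which makes arginine, read 0.11, 0.08 and 0.16 (mean 0.117, limma adjusted p = 0.215). Arg2, the mitochondrial arginase that consumes arginine, read 0.11, 0.255 and 0.06 (mean 0.142, adjusted p = 0.216), and both its probes were above 0 on every array. Cav1, caveolin 1, which binds and restrains endothelial synthase, had a mean of 0.117 ± 0.0896 (SD, n = 3, adjusted p = 0.267), and the chaperone gene Hsp90ab1 had one of 0.113 ± 0.0473 (adjusted p = 0.230). Calm3, 1 of the calmodulin genes, was the lowest of the group, at −0.01, −0.16 and −0.33 on arrays 1, 2 and 3 (mean −0.167, adjusted p = 0.239).

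Guanylyl cyclases and genes downstream of cGMP were divided. Of 8 genes of the cyclase group 3 lay above 0 and 5 below, and of 9 cGMP effector and breakdown genes 3 above and 6 below. Among all features, 55.7% lay above 0 and 42.7% below. The cyclase group as listed included Guca2a at 0.0533 and Guca2b at −0.04, which encode peptides and not cyclases. Gucy1b1, a beta subunit of the soluble cyclase that nitric oxide activates, read 0.04, 0.15 and 0.15, all above 0 (mean 0.113, limma adjusted p = 0.246). The other beta subunit gene listed, Gucy1b2, read −0.31, −0.11 and 0.11 (mean −0.103, limma adjusted p = 0.513). The membrane cyclase gene Gucy2g had a mean of 0.117 ± 0.0569 (SD, n = 3, adjusted p = 0.230).

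Among the listed genes measured on all 3 arrays, the lowest was Cnga1, a cyclic nucleotide-gated channel subunit. It read −0.22, −0.56 and −0.23, below 0 throughout and lowest on array 2, with a limma adjusted p of 0.117. Among G proteins and effectors used by endothelin receptors, 6 of 10 genes lay above 0. The inositol trisphosphate receptor gene Itpr1 had the smallest p-value there, with values of 0.12, 0.15 and 0.085 (mean 0.118, adjusted p = 0.205).

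**Figure D4:**
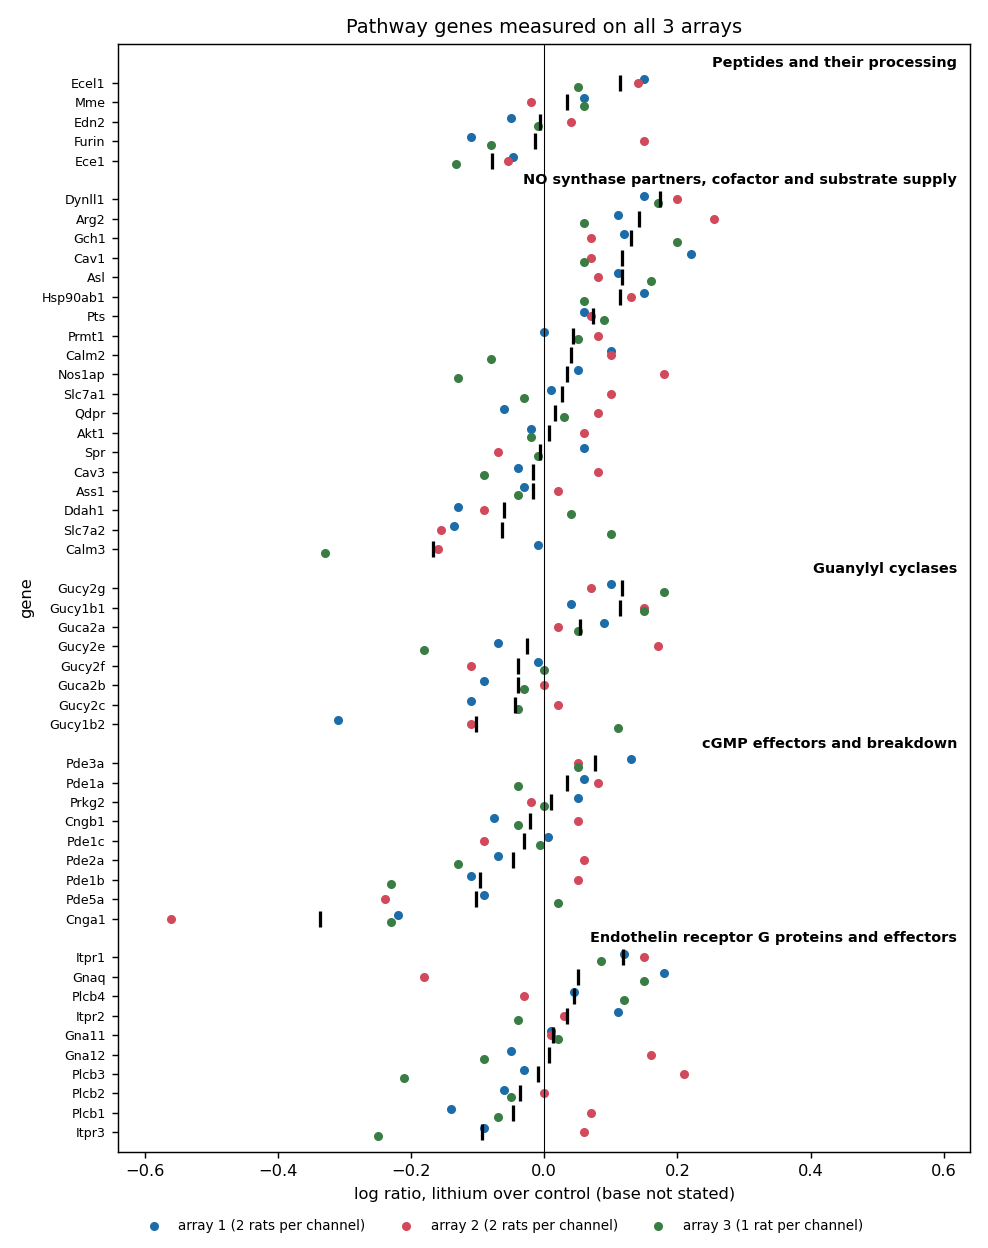
Log ratios of the 51 pathway genes measured on all 3 arrays, grouped by role and ordered by mean within each role; circles are arrays 1, 2 and 3 (colours) and the black tick is the mean. Most genes have circles on both sides of 0; Dynll1 at a mean of 0.173 and Cnga1 at −0.337 are the highest and lowest means.

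Markers of the cells that carry these systems were set beside the genes. Of 16 endothelial markers 6 were measured on all 3 arrays, 4 above 0 and 2 below, with a median of 0.015. Another 4 had a probe but no value on array 3, and their means over the arrays that measured them ran from −0.33 to 0.005. Smooth muscle and pericyte markers had a median of −0.0217 (2 of 8 above 0, 5 below, 1 at 0), and interstitial fibroblast markers one of 0.0133 (5 of 8 above 0). Among macrophage and leukocyte markers 5 of 8 lay above 0 and 2 below, with a median of 0.0158.

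Medians of the collecting duct and limb marker lists were farther from 0 than those of the vessel, interstitial and leukocyte lists, a difference that was not tested. Single markers did not follow this order, with the collecting duct gene Aqp3 at 0.00667 and the leukocyte integrin gene Itgam at −0.387. Collecting duct principal cell markers had a mean above 0 in 9 of 9, where 55.7% of all features did, with a median of 0.13 and medians of 0.09, 0.13 and 0.14 on arrays 1, 2 and 3. Thick and thin limb markers were below 0 in 3 of 3, where 42.7% of all features were, with a median of −0.177. Only these 3 of the 7 listed had a probe. The 1 intercalated cell marker measured on all 3 arrays stood at 0.02. The other one with a probe had no value on array 3 and read −0.25 and −0.20 on arrays 1 and 2. Of all 43 markers measured on 3 arrays, 1 passed the limma test, Hsd11b2, where 0.445% of all features did. The part of these shifts in the values of Edn1, Nos1 or the natriuretic peptide receptor genes was not tested.

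For each gene on all 3 arrays, the named gene with the nearest triplet of ratios was found by Euclidean distance. Ap3m2, an adaptor complex subunit gene, had the same 3 values as Nos2 (distance 0), and Slc25a11, a mitochondrial carrier gene, lay 0.00764 from Nos3. Rab3il1 lay 0.01 from Npr1, Csnk1a1 lay 0.02 from Nos1, Kcnc1 lay 0.02 from Edn3 and Rnase4 lay 0.0224 from Npr2. These are likenesses over 3 arrays that share the same hybridisations, given as a description.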

How the data were processed

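The authors' deposited table held 1 log ratio per probe and array, with 2 decimals. The log base, the scanner, the normalization, any background correction and any filter on weak spots are not given in the sources used here. Deposited medians were −0.02, −0.04 and 0, and whether the ratios were centred, their scale and their direction stay unknown. Arrays 1, 2 and 3 had 178, 78 and 1473 empty probes. Across the features tested, arrays correlated at 0.465 (1 and 2), 0.481 (1 and 3) and 0.157 (2 and 3), which is across genes, not replicates.

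Names came from the platform's public annotation (5064 probes with 1 symbol, 9 with several, 687 not listed). The gene IDs of 5043 of the probes with 1 symbol were found in a rat gene table of assembly GRCr8. Arrays were centred on their median and probes of 1 gene averaged. An intercept-only limma 3.58.1 fit (R 4.3.3, eBayes, two-sided) covered the 3819 features on all 3 arrays, with Benjamini-Hochberg adjustment at 0.05, and was tested on simulated data. Tables and figures were made with matplotlib 3.10.9, pandas 2.3.3 and numpy 2.4.6 in Python 3.11.15.

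The genes described, the pathway list and the marker lists were chosen with earlier results of these data known. All 8 genes are named, the 12 pathway genes with the smallest p-values, the nearest named gene of each, and, outside that rule, Edn2, Ece1, Hsd11b2, Aqp3, Itgam, Nppa, Nppb, Nppc, Gucy1a1, Gucy1b2, Guca2a, Guca2b, Pde3b, Arg1, Pde5a, Slc7a2 and Pde1c. Alternatives were other centring, scaling, a 2-array minimum, single probes, a robust prior, array weights and each array left out.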

Additional observations from a re-analysis of the deposited data

How the results depend on the processing

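Over the 6 genes measured on all 3 arrays and 10 alternatives, 55 of 60 results kept their direction and stayed on the same side of the threshold. Array weights gave 1 called gene, Nos1, in place of 0. They also turned Edn3 to 0.0748 and moved Npr2 from −0.10 to −0.0201 and Nos2 from −0.00667 to −0.0518. With 1 array left out, Edn3 ran from −0.075 to 0.05, Nos2 from −0.04 to 0.025, and 0 of these genes were called. Centring by print block put Nos2 at 0. Taken alone, 3 probes of Nos3 opposed the gene mean, at 0.01, 0.0133 and 0.0833. The median of the 6 genes was −0.0381, and it ran from −0.0581 to −0.0325 over the centring choices. It was −0.0638 without array 2 and, with Edn1 and Npr3 admitted by the 2-array minimum, −0.0742.

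The limma count over all features was 17, and it was 91 with all arrays brought to 1 spread, 40 with features on at least 2 arrays, 94 with a robust prior, 1055 with array weights, and 11 among single probes. With any 1 array left out it was 0, while 172, 606 and 445 features had an unadjusted p of 0.05 or less without array 1, 2 and 3. The cause of these moves was not tested. Each log ratio already pairs the 1 lithium and 1 control RNA of its array, so the fit against 0 is itself the paired analysis. Spot brightness was not used here, so signal over background is not known for any probe.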

Other observations

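Pathway genes with no value on array 3 stood apart from those measured there. All 12 such genes had a mean below 0 over the arrays that measured them, with a median of −0.14. Among the 51 pathway genes on all 3 arrays, the mean of arrays 1 and 2 was below 0 in 20. Over the whole table, 83.0% of 1209 features with no value on array 3 lay below 0, against 38.2% of the 3819 measured on all arrays. The genes concerned, looked up after their values were seen, include the natriuretic peptide genes and a subunit of the soluble cyclase. Nppb, which encodes brain natriuretic peptide, had a value on array 2 only, −0.62. Nppa, which encodes atrial natriuretic peptide, read 0.02 and −0.24 on arrays 1 and 2, and Nppc, which encodes C-type natriuretic peptide, read −0.08 and 0.03. Gucy1a1, an alpha subunit of the soluble cyclase, read −0.07 and −0.40, whereas its partner Gucy1b1 was above 0 on all 3 arrays. The phosphodiesterase gene Pde3b read −0.33 and −0.28, and Arg1, the cytosolic arginase, read −0.13 and −0.18. None of these entered the main fit.

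Among pathway genes with several probes and 1 of them empty on array 3, Pde5a and Slc7a2 had the lower values at the empty probe on both other arrays, as Nos1 did, and Pde1c and Ece1 did not. The probe of Pde5a, the cGMP phosphodiesterase, that was empty on array 3 read −0.14 and −0.58 on arrays 1 and 2, where its other probe read −0.04 and 0.10. For Slc7a2, a cationic amino acid transporter, the empty probe read −0.19 and −0.30 and the other −0.08 and −0.01. For Pde1c the empty probe read −0.45 on array 2, where the other 3 lay between 0 and 0.06, but on array 1 it read 0.02. The empty probe of Ece1 read −0.01 and 0, within the range of its other probes. The cause of the empty spots was not tested.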
